A study of Rattus norvegicus with 458 samples.

Results

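The arms of microRNA 9 (miR-9) were followed through 23 tissues of Sprague Dawley rats in small RNA sequencing data. The members were the rows whose name, or any part of a composite name, read miR-9, miR-9a or miR-9b with or without its arm, and precursor names were left out. This gave 6 of 7534 names and 1855 of 264294 isomiR sequences (isomiRs are the length and end variants of a miRNA). The names were miR-9a-5p with 5867103 counts, miR-9a-3p with 168517 counts, miR-9b-5p with 250 counts, miR-9b-3p with 21 counts, and the composites of the 5p arms with 37 counts and of the 3p arms with 2 counts. Only miR-9a-5p and miR-9a-3p passed the filter on low counts.

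A miRNA is cut from a hairpin whose 5p and 3p arms can each be loaded into an Argonaute protein. Bases 2 to 8 of the loaded strand, the seed, set most of its target pairing. miR-9 is known from neural progenitors and neurons of the vertebrate brain, where the 5p arm represses Rest, Nr2e1 and Hes1, and the 3p arm, also called miR-9*, represses Rcor1, which encodes a partner of Rest. The 5p strand is usually taken as the guide and the 3p strand as the less kept passenger, and both are functional. The dorsal root ganglion (DRG) lies outside the brain and holds the cell bodies of sensory neurons with their satellite glia.

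The mature sequences of both members are shown first, because the isomiR results turn on their first bases. They come from RefSeq on the GRCr8 build, read 5′ to 3′, and capitals mark the seed.
miR-9a-5p: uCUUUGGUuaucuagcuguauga
miR-9a-3p: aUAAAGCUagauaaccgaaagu
miR-9b-5p: uUCGGUUAucuagcuuuau
miR-9b-3p: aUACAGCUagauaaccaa

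Both miR-9a arms are identical in 3 hairpins, so their counts cannot be split between loci except by bases beyond the mature end. The hairpins are printed with the mature arms in capitals.
Mir9-1: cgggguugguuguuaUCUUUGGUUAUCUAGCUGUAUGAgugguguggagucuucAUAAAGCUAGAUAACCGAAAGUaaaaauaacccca
Mir9-2: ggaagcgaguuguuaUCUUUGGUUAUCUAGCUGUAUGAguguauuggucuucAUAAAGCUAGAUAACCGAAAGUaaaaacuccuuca
Mir9-3: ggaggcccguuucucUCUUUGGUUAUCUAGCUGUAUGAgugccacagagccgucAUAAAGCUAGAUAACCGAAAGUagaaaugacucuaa

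Mir9-1 lies at chr2:175974971-175975059 within the long non-coding RNA gene LOC100911992. Mir9-2 lies at chr2:15933292-15933378 within Mir9-2hg, which RefSeq types as protein coding. Mir9-3 lies at chr1:142849400-142849489 within the long non-coding RNA gene Mir9-3hg. All 3 hairpins are on the plus strand, and on the minus strand over each of them RefSeq places a miR-9b hairpin, Mir3597-1, Mir3597-2 or Mir3597-3. With positions counted from 1 at the 5′ end of the miR-9a strand, the 5p arms differ by U5C and G18U (miR-9a base first), and the 3p arms by A4C and G17A.

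The rats were naïve, aged 12 to 13 weeks. Rats 2 to 6 were male and rats 7 to 11 female, each giving up to 4 brain regions (brainstem, cerebellum, cerebrum, hippocampus) and 18 non-neural tissues, with testis, ovary and uterus from 5 rats each. The tissues labelled Cortex and Medulla are kidney cortex and kidney medulla. DRG was represented by 2 pools, male and female, each made of the ganglia of 5 rats and sequenced as 5 technical libraries, which were summed, so n = 2. Per the paper, the DRG RNA was supplied by Takeda, and the labels give no RNA integrity number for it. In every comparison with DRG, tissue and source of the RNA therefore cannot be told apart. Fewer neurons and less miR-9 per neuron cannot be told apart in such bulk RNA. Totals over miRNA names ranged from 376401 counts (testis) to 17725805, with a median of 4862539, and in the brain libraries from 2207930 to 7506562.

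Of 207 samples, 200 were used: 37 brain, 2 DRG and 161 non-neural. The other 7 were left out because their profile went against their label. On the CPM scale (the counts of a name scaled to 1000000 counts over all names of a library), the duodenum libraries of rats 2, 4 and 7 held 45999, 44276 and 30238 CPM of miR-9a-5p and neuronal marker sums of 23948 to 42892 CPM. The hippocampus libraries of rats 2, 6 and 7 held 13.6, 55.5 and 23.4 CPM of miR-9a-5p and neuronal marker sums of 45.9 to 191 CPM. The duodenum library of rat 11 held 29.8 CPM, and its intestinal marker sum was 364 CPM against 364604 to 485345 CPM in the 6 duodenum libraries kept. Among the libraries kept, the brainstem of rat 9 had 98.0 CPM of miR-182 where the other 9 had 4574 to 5850 CPM, and 9799 CPM of miR-128-3p where the other 9 had 4161 to 5860 CPM. The cerebellum of rat 10 had 6521 CPM of miR-182 against a region median of 182 CPM, and 1066 CPM of miR-183-5p against a median of 20.1 CPM. The cerebrum of rat 9 had 1403 CPM of miR-338-3p where the other 9 had 2421 to 4081 CPM, and 34122 CPM of miR-128-3p where the other 9 had 38319 to 60350 CPM. The adrenal of rat 8, the ovary of rat 11 and the uterus of rat 8 had intestinal marker sums of 361813 to 424947 CPM. Without rat 10, the differences of cerebellum from brainstem were 1.396 for miR-9a-5p (adjusted p = 8.14e-05 by edgeR), 0.93 for miR-9a-3p (adjusted p = 0.0455 by edgeR) and 0.47 for the arm ratio (adjusted p = 2.27e-05 by limma) on the log2 scale, each on the same side of the threshold as with rat 10.

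Both arms were highest in the 4 brain regions. miR-9a-5p was highest in the hippocampus with 42389 ± 2601 CPM (SD, n = 7), from 37278 through a median of 42784 to 45326 CPM. In the cerebrum it lay at 35058 ± 6231 CPM (n = 10; lowest 18611, median 37129, highest 39462). The cerebellum had 32234 ± 2176 CPM (n = 10; lowest 28648, median 32306, highest 35138). The brainstem came last of the brain regions, with no overlap with the cerebellum or the hippocampus. It held 21749 ± 2124 CPM (n = 10; lowest 19355, median 21181, highest 26018), or 19355 to 24256 CPM without rat 9. The arm made up 2.17% of all counts in the brainstem and 4.24% in the hippocampus, where it ranked 5th of 3089 names detected.

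miR-9a-3p, the less abundant strand, was also highest in the hippocampus, with 1128 ± 109 CPM (SD, n = 7; lowest 970, median 1138, highest 1280). The cerebellum had 908 ± 56.7 CPM (n = 10; lowest 813, median 914, highest 1005). The cerebrum had 883 ± 157 CPM (n = 10; lowest 596, median 900, highest 1110). The brainstem held 848 ± 50.0 CPM (n = 10; lowest 766, median 868, highest 901) and overlapped the cerebellum and the cerebrum. The hippocampus also overlapped the cerebellum and the cerebrum, but not the brainstem. The 3p arm ranked between 62nd and 88th in the brain regions.

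**Figure D1:**
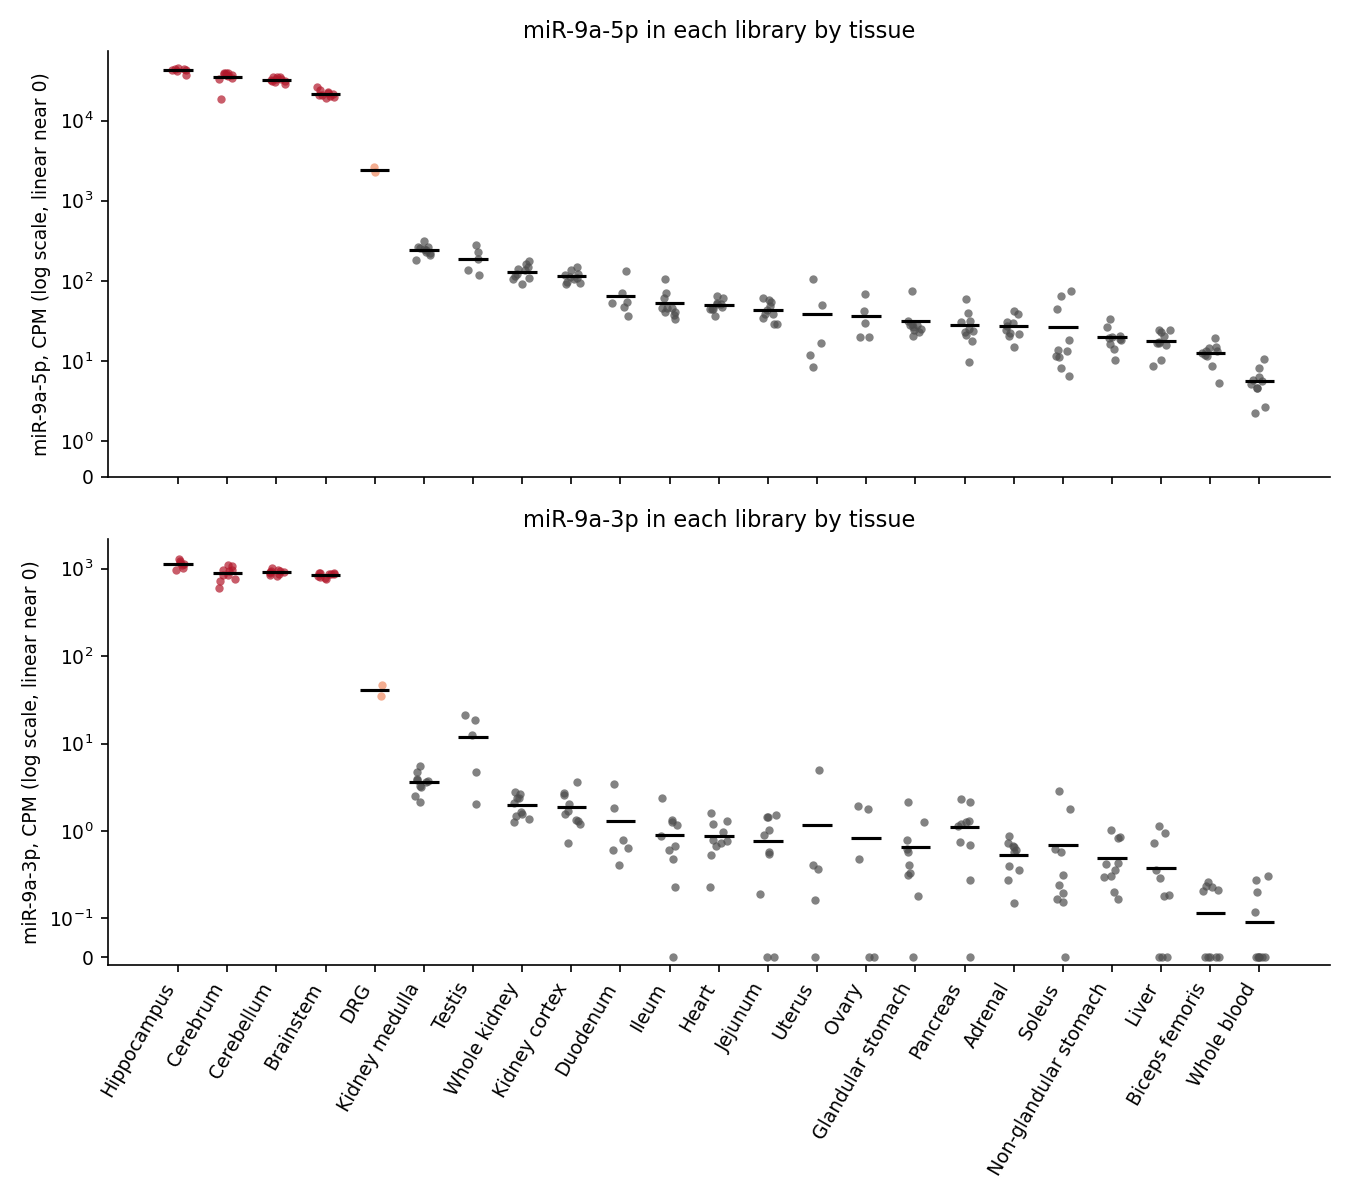
Levels of miR-9a-5p and miR-9a-3p in CPM (log-type axis, linear near 0) in the 23 tissues, 1 point per library or pool, with a bar at each mean. The 37 brain libraries used lie at or above 18611 CPM (5p) and 596 CPM (3p), the 2 DRG pools between brain and all other tissues, and no non-neural library used exceeds 315 CPM (5p) or 21.4 CPM (3p). Samples left out because their profile went against their label are not shown.

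The question for the atlas was how far a miRNA sets one tissue apart from the others. The lowest brain library had 18611 CPM of miR-9a-5p, and the highest of 161 non-neural libraries had 315 CPM. For miR-9a-3p the same values were 596 and 21.4 CPM. Among the libraries used, the groups did not overlap for either arm. Under their labels, the samples left out would make them overlap. Of these, the duodenum of rat 2 held 45999 CPM of miR-9a-5p and 1105 CPM of miR-9a-3p, and the hippocampus of rat 2 held 13.6 and 0.426 CPM. By edgeR's quasi-likelihood test, miR-9a-5p was higher in brain by 7.60 on the log2 scale (SE 0.126, adjusted p = 2.35e-119) and miR-9a-3p by 8.04 (SE 0.160, adjusted p = 1.10e-106). In this comparison 26% of the 1593 names tested were called higher and 35.6% lower, and the median log2 difference over all names was -0.98. TMM scaling gave 517 names higher and 464 lower and a median of -0.60. Under the alternatives tried, all 44 refitted values of the 2 arms kept the direction and the call.

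In DRG both arms were far below the brain and above every other tissue. The female and male pools held 2288 and 2595 CPM of miR-9a-5p, or 7.43% of the mean of the brain regions. The same pools held 35.1 and 46.3 CPM of miR-9a-3p, or 4.33% of that mean. Neither pool overlapped any brain or non-neural library used, for either arm.

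The technical libraries show the precision within a pool. They ranged from 1794 to 2679 CPM (female) and from 2008 to 3026 CPM (male) for the 5p arm, and from 31.0 to 46.1 and from 27.5 to 57.6 CPM for the 3p arm. Against brain, edgeR gave a log2 difference of -3.31 for miR-9a-5p (SE 0.636, adjusted p = 6.61e-06) and of -4.14 for miR-9a-3p (SE 0.842, adjusted p = 2.23e-05), where 11.3% of names were called lower and 16.9% higher (DESeq2: 293 names lower and 168 higher). Against the non-neural tissues the log2 differences were 4.29 (SE 0.262, adjusted p = 1.09e-35 by edgeR) and 3.91 (SE 0.362, adjusted p = 6.97e-20), where 16.1% of names were called higher and 8.1% lower (256 and 129 names, and 396 and 62 with TMM scaling). With 2 pools the spread of DRG was taken from the fit over all tissues. In each comparison, all 42 values refitted under the alternatives kept the direction and the call.

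Marker miRNAs of the sensory neuron cluster, which is transcribed as miR-183, miR-96 and miR-182, summed to 77472 and 81032 CPM in the DRG pools, and all 3 were detected. The 4 neuronal markers of the brain list summed to 856 and 1200 CPM in DRG against 6732 to 65492 CPM over the brain regions. miR-124-3p, a neuronal miRNA, was at 374 and 410 CPM. The oligodendrocyte markers summed to 7080 and 7283 CPM in DRG, of which miR-338-3p gave 7060 and 7219 CPM and miR-219a-2-3p 17.7 and 59.3 CPM. The lists name the cell types for which the markers were chosen, and whether these cells were in the DRG samples was not tested. The part of such cells in the DRG level of miR-9a was not tested either.

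Between brain regions, the brainstem stood lowest for miR-9a-5p. Within rats, the CPM of miR-9a-5p was higher in the cerebellum than in the brainstem in 10 of 10 rats, in the cerebrum in 9 of 10 and in the hippocampus in 7 of 7. The log2 differences by edgeR were 1.38 for the cerebellum (SE 0.296, adjusted p = 6.59e-05), 0.97 for the cerebrum (SE 0.293, adjusted p = 0.0130) and 1.12 for the hippocampus (SE 0.317, adjusted p = 0.00708). The shares of names called higher were 15.5%, 7.85% and 6.4%, and of those called lower 12.6%, 6.15% and 6.78%. The 1 exception within rats was the cerebrum of rat 9 (18611 CPM), and without rat 9 the cerebrum difference was 1.04 (adjusted p = 0.00635 by edgeR). On the shared flow cell alone the cerebellum call stayed (1.23, adjusted p = 0.0471 by edgeR), and those of the cerebrum (0.72, adjusted p = 0.414) and the hippocampus (0.85, adjusted p = 0.299) were lost. TMM scaling also ended the cerebrum call (0.74, adjusted p = 0.0594 by edgeR). The cerebellum difference kept its call in all 23 alternatives but ranged from 0.78 to 1.48. Mean CPM were 32234 in the cerebellum and 21749 in the brainstem. The test used upper quartile scaling and CPM did not, so the size of these differences depends on the scale.

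For miR-9a-3p the brainstem difference was smaller. The cerebellum exceeded the brainstem by 0.92 on the log2 scale (SE 0.365, adjusted p = 0.0466 by edgeR), with higher CPM in 8 of 10 rats, and leaving out any of 11 of the 12 rats and pools ended this call (highest adjusted p = 0.0830). The size depended on the scale, as mean CPM were close, 908 in the cerebellum and 848 in the brainstem. TMM scaling gave 0.36 (adjusted p = 0.498 by edgeR) and DESeq2 0.32 (adjusted p = 0.324 by DESeq2). The cerebrum and hippocampus differed from the brainstem by 0.33 (SE 0.362, adjusted p = 0.644) and 0.57 (SE 0.395, adjusted p = 0.395) by edgeR, which did not pass.

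The order of the cerebrum, the cerebellum and the hippocampus was not resolved. The log2 differences of miR-9a-5p and miR-9a-3p by edgeR were -0.42 and -0.58 for cerebrum against cerebellum (adjusted p = 0.329 and 0.260), -0.26 and -0.34 for hippocampus against cerebellum (0.677 and 0.648), and 0.16 and 0.24 for hippocampus against cerebrum (0.970 and 0.942). In CPM, however, the hippocampus exceeded the cerebellum in 7 of 7 rats for both arms. The sign depended on the scaling: DESeq2 gave 0.30 and 0.22 for hippocampus against cerebellum, and a fit of the brain libraries alone, with its own scaling and chosen after seeing the data, gave -0.44 and -0.53 (adjusted p = 0.000823 and 0.000141 by edgeR). The same fit gave -0.84 and -1.01 for cerebrum against cerebellum (adjusted p = 4.01e-09 and 9.30e-11 by edgeR), where 9 of 10 rats had the higher miR-9a-5p CPM in the cerebrum. In that fit the median log2 difference over all names was -0.34 for cerebrum and -0.24 for hippocampus against cerebellum, and with TMM it was -0.34 for cerebellum against brainstem. The names called higher were 13.1%, 9.42% and 0.816% in these 3 pairs, and those called lower 13.4%, 11.4% and 2.89%. Scaling also moved the split of calls over all names, since TMM gave 128 higher and 377 lower against 247 and 200 for cerebellum against brainstem, 81 and 149 against 125 and 98 for cerebrum against brainstem, 69 and 181 against 102 and 108 for hippocampus against brainstem, 303 and 143 against 209 and 213 for cerebrum against cerebellum, and 226 and 133 against 150 and 181 for hippocampus against cerebellum. For hippocampus against cerebrum DESeq2 gave 42 and 64 against 13 and 46.

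Known cell type markers also differed between these regions. The 4 neuronal markers summed to a median of 7896 CPM in the brainstem, 23301 in the cerebellum, 28997 in the hippocampus and 52056 in the cerebrum. The order of the regions differed between members of this list. Mean miR-128-3p was 5688 CPM in the brainstem, 11600 in the cerebellum, 24553 in the hippocampus and 44865 in the cerebrum. Mean miR-124-3p was highest in the cerebellum (11757 CPM), against 5848 in the cerebrum, 5154 in the hippocampus and 2514 in the brainstem. The 3 oligodendrocyte markers ran from a median of 2414 CPM in the cerebellum to 12143 CPM in the brainstem, and miR-219a-2-3p and miR-338-3p were at 2627 ± 534 and 8770 ± 1198 CPM there (SD, n = 10). The RNA integrity number was 7.6 to 8.3 in the other 3 regions and 6 to 8.1 in the hippocampus. The part of these in the regional levels of miR-9a was not tested.

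Outside the nervous system, kidney medulla had the highest mean of miR-9a-5p, followed by testis (189 ± 65.8 CPM, SD, n = 5), whole kidney and kidney cortex. Kidney medulla had 243 ± 36.1 CPM (SD, n = 10; lowest 181, median 245, highest 315), whole kidney 130 ± 26.3 CPM (92.1 to 175) and kidney cortex 113 ± 17.9 CPM (92.1 to 148). Medulla did not overlap cortex. Against the mean of the other non-neural tissues these were log2 differences of 2.78 (adjusted p = 5.51e-38), 1.87 (adjusted p = 2.65e-19) and 1.18 (adjusted p = 3.40e-08) by edgeR, with 25%, 23.8% and 21.2% of names called higher. miR-9a-3p was higher in the same samples by 2.22, 1.30 and 0.82 (adjusted p = 2.45e-14, 4.73e-05 and 0.0267 by edgeR), at 3.64 ± 0.995, 1.97 ± 0.570 and 1.88 ± 0.874 CPM (SD, n = 10). The cortex call for miR-9a-3p was lost without rat 2, 10 or 11 (log2 differences 0.72, 0.62 and 0.68, highest adjusted p = 0.123 by edgeR), under DESeq2 (0.40, adjusted p = 0.216), with all libraries under their labels (0.50, adjusted p = 0.566 by edgeR) and on the shared flow cell (0.65, adjusted p = 0.342 by edgeR). The whole kidney call for miR-9a-3p was lost in the last 2 of these (0.95, adjusted p = 0.0931, and 1.16, adjusted p = 0.0576, by edgeR), and the cortex call for miR-9a-5p on the shared flow cell (0.74, adjusted p = 0.118 by edgeR).

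Testis stood apart for the 3p arm. The 5 testis libraries held 2.06, 18.6, 21.4, 12.4 and 4.70 CPM of miR-9a-3p (rats 2 to 6), which rest on 1, 7, 14, 6 and 2 counts. Their miR-9a-5p levels were 117, 276, 231, 136 and 186 CPM. By edgeR the 3p arm was higher in testis by 1.73 on the log2 scale (SE 0.434, adjusted p = 0.000344), where 19.7% of names were called higher, and the call was lost without rat 4 (1.21, adjusted p = 0.0586 by edgeR), with all libraries under their labels (1.36, adjusted p = 0.0837 by edgeR) and on the shared flow cell (1.54, adjusted p = 0.178 by edgeR). The 5p arm differed by 0.01 (SE 0.293, adjusted p = 1 by edgeR). In CPM, however, the testis mean of miR-9a-5p was 189, against a median of 32.9 over the non-neural libraries. The test used upper quartile scaling and CPM did not, so the 5p result in testis depends on the scale.

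Of the 18 non-neural tissues, 4 were called higher and 6 lower for miR-9a-5p, and 4 higher and 3 lower for miR-9a-3p. The fourth tissue higher in miR-9a-5p was the ileum (52.8 CPM, log2 difference 0.64, adjusted p = 0.00748 by edgeR), whose call was lost without rat 11 (0.46, adjusted p = 0.0981 by edgeR), with all libraries (0.27, adjusted p = 0.808 by edgeR) and on the shared flow cell (0.45, adjusted p = 0.445 by edgeR). Lower levels of miR-9a-5p were found in biceps muscle (12.5 ± 3.68 CPM, log2 difference -2.29), adrenal (27.0 ± 8.29 CPM, -1.43), liver (17.8 ± 5.35 CPM, -1.39), soleus muscle (26.6 ± 25.0 CPM, -1.11), ovary (36.1 ± 20.3 CPM, -1.02) and pancreas (28.1 ± 13.9 CPM, -0.88). Of all names, those called higher and lower made up 25% and 6.53% in kidney medulla, 23.8% and 7.16% in whole kidney, 21.2% and 6.59% in kidney cortex, 18.1% and 10.5% in ileum and 19.7% and 18.3% in testis. In the 6 lower tissues they made up 18.6% and 17.2% in biceps muscle, 18.8% and 18% in adrenal, 25.7% and 10.4% in liver, 20.1% and 14.2% in soleus muscle, 19.8% and 6.84% in ovary and 24.7% and 13.4% in pancreas. In the 7 tissues in which neither arm was called they made up 14.6% and 7.66% in duodenum, 27.4% and 8.91% in heart, 21.7% and 12.4% in jejunum, 19.7% and 8.29% in glandular stomach, 21.8% and 12.6% in non-glandular stomach, 15.8% and 2.39% in uterus and 35.7% and 16.8% in whole blood. The largest adjusted p of the 6, by edgeR, was 0.0111 in ovary, and that call was lost without rat 7, 8 or 10 (log2 differences -0.83, -0.81 and -0.87, highest adjusted p = 0.0942 by edgeR), under TMM scaling (-0.53, adjusted p = 0.213 by edgeR) and with all libraries (-1.33, adjusted p = 0.104 by edgeR). For miR-9a-3p the lower tissues were biceps muscle (0.114 ± 0.121 CPM, log2 difference -3.27), adrenal (0.528 ± 0.225 CPM, -1.51) and liver (0.382 ± 0.412 CPM, -1.31, adjusted p = 0.00913 by edgeR), and liver lost its call without rat 7 (-1.03, adjusted p = 0.0595 by edgeR). On the flow cell shared by all libraries, 3 tissues were lower for miR-9a-5p and none of 18 for miR-9a-3p. There pancreas lost its 5p call (-0.55, adjusted p = 0.341 by edgeR), and the differences of soleus muscle (5p 0.21), ovary (5p 0.13) and liver (3p 0.27) changed sign.

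Whole blood had the lowest CPM of both arms, with 5.57 ± 2.45 CPM of miR-9a-5p (SD, n = 10; lowest 2.24, median 5.37, highest 10.6) and 0.0897 ± 0.125 CPM of miR-9a-3p, where 6 of 10 libraries had no count. It was not called lower, however (log2 difference of the 5p arm -0.21, adjusted p = 0.521 by edgeR). The median over the non-neural libraries was 32.9 CPM of miR-9a-5p. The test used upper quartile scaling and CPM did not, so the whole blood result depends on the scale, as in testis. miR-9a-5p was detected in all 161 non-neural libraries and miR-9a-3p in 138. Without the adrenal of rat 8 (42.0 CPM of miR-9a-5p), the adrenal mean was 25.3 ± 6.79 CPM (n = 9). Without the ovary of rat 11 (41.8 CPM) and the uterus of rat 8 (49.6 CPM), the ovary had 34.7 ± 23.2 CPM (n = 4) and the uterus 35.8 ± 47.0 CPM (n = 4). Of the 22 steps between neighbours in the order of tissue means, 9 exceeded the pooled SD of the neighbours for miR-9a-5p and 5 for miR-9a-3p, and the ranges of neighbours overlapped in 19 and 20.

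No difference between the sexes passed the test for either arm in any brain region. The log2 differences, female minus male, lay between 0.02 and 0.10 for miR-9a-5p and between -0.05 and 0.19 for miR-9a-3p (SE from 0.337 to 0.482, adjusted p = 1 in all 8 tests by edgeR). Over 1068 names, the shares called higher in females were 0%, 0.749%, 0% and 0% in brainstem, cerebellum, cerebrum and hippocampus, and those called lower 0%, 0.187%, 0.0936% and 0.0936%. The brainstem, for example, held 19355 to 23021 CPM of miR-9a-5p in 5 males and 21083 to 26018 CPM in 5 females.

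The ratio of 5p to 3p counts differed between brain regions, and the brainstem had the lowest. It was 25.8 ± 3.08 in the brainstem (SD, n = 10; lowest 21.6, median 24.5, highest 30.0). It was 35.6 ± 2.57 in the cerebellum (n = 10; lowest 32.2, median 36.3, highest 39.0) and 37.7 ± 2.06 in the hippocampus (n = 7; lowest 35.4, median 37.6, highest 41.5). The cerebrum had 39.9 ± 5.25 (n = 10; lowest 31.2, median 39.7, highest 46.7). Every brainstem library lay below every library of the other 3 regions, and the highest brainstem value was that of rat 9 (29.6 in the next).

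The log2 ratio was tested with limma over 106 miRNAs with both arms counted. The brainstem was below the cerebellum by 0.47 (SE 0.078, adjusted p = 3.15e-06), with the same sign in 10 of 10 rats. It was below the cerebrum by 0.63 (SE 0.078, adjusted p = 2.45e-08 by limma), again in 10 of 10 rats, and below the hippocampus by 0.56 (SE 0.086, adjusted p = 2.58e-06 by limma) in 7 of 7. The shares of arm pairs with a higher ratio were 31.1%, 18.9% and 10.4%, and those with a lower one 34%, 18.9% and 17%. Without rat 9 the differences were 0.50, 0.69 and 0.60.

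The other 3 regions differed less. The cerebrum exceeded the cerebellum by 0.16 (95% interval -0.002 to 0.32, adjusted p = 0.0888 by limma, 23.6% of pairs higher and 20.8% lower) and in 8 of 10 rats, while the exact sign flip test of the within-rat differences gave an adjusted p of 0.0322. Without rat 9 the difference was 0.19 (adjusted p = 0.0442 by limma). The hippocampus differed from the cerebellum by 0.09 (95% interval -0.09 to 0.26, adjusted p = 0.441 by limma, 16% higher and 23.6% lower) and from the cerebrum by -0.07 (95% interval -0.25 to 0.10, adjusted p = 0.757 by limma, 0% higher and 2.83% lower). When the ratio was taken from the most counted sequence of each arm, cerebrum and hippocampus exceeded the cerebellum by 0.53 and 0.45 (adjusted p = 5.97e-05 and 0.00217 by limma).

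DRG had a higher ratio than any brain region. It was 65.2 in the female pool and 56.0 in the male pool, and the highest brain library had 46.7. The technical libraries of the pools ran from 55.3 to 86.3 (female) and from 40.7 to 73.1 (male), with 26 to 201 counts of miR-9a-3p behind each. limma gave a log2 difference from the brain regions of 0.82 (95% interval 0.57 to 1.08, adjusted p = 1.25e-06), where 24.5% of the arm pairs were higher and 24.5% lower. On the shared flow cell alone it was 0.54 (adjusted p = 0.00234 by limma), and from the most counted sequences alone 1.65 (adjusted p = 1.18e-10 by limma).

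**Figure D2:**
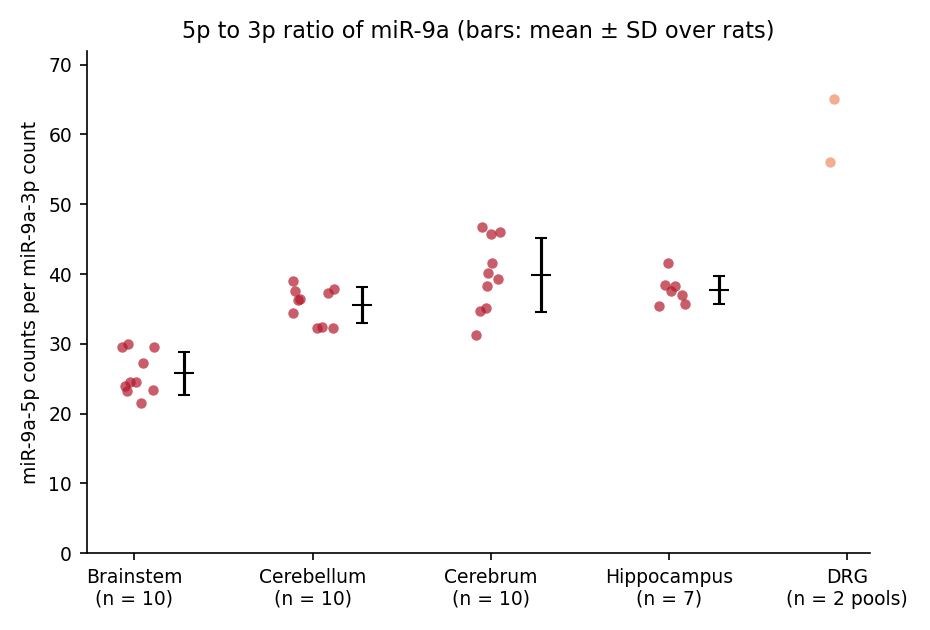
Ratio of miR-9a-5p to miR-9a-3p counts (linear axis from 0) in each library of the 4 brain regions and in the 2 DRG pools (points), with bars for the mean and SD over rats in the brain regions. The 10 brainstem libraries lie between 21.6 and 30.0, below all other brain libraries, and the DRG pools at 56.0 and 65.2.

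Among the 106 arm pairs, miR-9a ranked 17th in the brainstem, 16th in the cerebellum, 15th in the cerebrum and hippocampus and 12th in DRG for the excess of 5p over 3p. Outside the nervous system, counts summed over libraries gave ratios of 65.8 in kidney medulla (95% interval 57.5 to 75.6), 65.6 in whole kidney (54.5 to 79.6) and 63.2 in kidney cortex (51.2 to 78.9). Heart (57.5), jejunum (57.4), whole blood (55.6), duodenum (54.7), ileum (52.9), adrenal (48.8) and glandular stomach (47.6) were also above the highest brain library. Their intervals reached the brain range. Biceps muscle had 104 (47.4 to 284) from 6 miR-9a-3p counts. Liver, non-glandular stomach, ovary and soleus muscle lay between 37.9 and 44.4. In testis the summed ratio was 15.2 (10.5 to 22.8), from 457 and 30 counts. Pancreas had 27.9 (20.1 to 39.9). Uterus had 29.5 (20.4 to 44.3), a value set by the library of rat 7, which gave 536 of 856 5p counts and 25 of 29 3p counts. Without it, a choice made after seeing the data, 320 and 4 counts were left, with an interval of the ratio from 30.9 to 295. These intervals are exact and cover counting error only, and the differences between these tissues were not tested.

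The isomiRs behind the counts are printed next, because the same arm was found with different first bases. Sequences are as deposited (T for U), and capitals mark bases 2 to 8 of each. The 5 most counted of each arm over the brain libraries follow in order.
miR-9a-5p, rank 1: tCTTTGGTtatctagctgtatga
miR-9a-5p, rank 2: tCTTTGGTtatctagctgtat
miR-9a-5p, rank 3: tCTTTGGTtatctagctgtatg
miR-9a-5p, rank 4: tCTTTGGTtatctagctgtatgt
miR-9a-5p, rank 5: cTTTGGTTatctagctgtatga
miR-9a-3p, rank 1: aTAAAGCTagataaccgaaagt
miR-9a-3p, rank 2: tAAAGCTAgataaccgaaagt
miR-9a-3p, rank 3: tAAAGCTAgataaccgaaagta
miR-9a-3p, rank 4: aTAAAGCTagataaccgaaagta
miR-9a-3p, rank 5: aTAAAGCTagataaccgaaa

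The 5p sequences made up 53.2%, 16.8%, 11.8%, 4.51% and 2.81% of the miR-9a-5p counts in brain, and the 3p sequences 55.6%, 10.3%, 9.07%, 4.01% and 3.81% of the miR-9a-3p counts. The first sequence of each arm is the RefSeq mature form. The fourth 5p sequence ends in a T that none of the 3 hairpins has at that place. The fifth 5p sequence and the 3p sequences of ranks 2 and 3 start 1 base later, so that bases 2 to 8 are shifted. In all, 1173 of the 1215 isomiRs of miR-9a-5p and 552 of the 572 of miR-9a-3p had a count in brain.

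One flow cell lane had to be set aside for the 5′ ends. In 14 runs of that lane, 47.0% to 60.4% of the counts over all miRNAs carried 1 extra base at the 5′ end (median 55.2%), against 0.0887% to 1.28% in the other 444 runs (median 0.456%). The lane held runs of the brainstem of rat 6, the cerebrum of rat 9 and the male DRG pool. Levels moved little without it in brain, where the cerebrum of rat 9 went from 18611 to 18712 CPM of miR-9a-5p, while the testis of rat 5 went from 136 to 370 CPM of miR-9a-5p and from 12.4 to 23.9 CPM of miR-9a-3p. The values below leave these runs out, a choice made after seeing the data, and the values with all runs are given beside the tests.

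A late start was common for miR-9a-3p and rare for miR-9a-5p in brain. In the brainstem, 21.1% of the miR-9a-3p counts started 1 base late, with libraries from 18.8% to 23.1% (n = 10). The share was 26.5% in the cerebellum (24.5% to 29.0%, n = 10), 28.8% in the hippocampus (27.7% to 29.8%, n = 7) and 30.0% in the cerebrum (26.9% to 31.8%, n = 10). The brainstem did not overlap the other 3 regions, and rat 9 had 22.8% there. Among 406 miRNAs with at least 1000 brain counts, the median share was 0.222%, and 18 names exceeded the 26.7% of miR-9a-3p.

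For miR-9a-5p the order of the regions was the opposite. A start 1 base late was seen in 5.71% of the brainstem counts (libraries from 5.04% to 6.71%), 3.91% in the cerebellum (3.53% to 4.14%), 3.14% in the hippocampus (3.00% to 3.33%) and 2.99% in the cerebrum (2.66% to 3.32%). The brainstem and the cerebellum overlapped no other region. The lowest brainstem value was that of rat 9, and the other 9 lay from 5.34% to 6.71%. For miR-9a-5p, 78 of the 406 names exceeded its 3.74% over the brain libraries.

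DRG lay outside the range of the brain for both arms, in opposite directions. There 60.9% of the miR-9a-3p counts started 1 base late (56.0% in the male and 66.0% in the female pool), from 740 counts, and the 37 brain libraries had 18.8% to 31.8%. For miR-9a-5p the share was 0.593% (0.717% in the male and 0.484% in the female pool), and the brain libraries had 2.66% to 6.71%. The most counted 3p sequence in brain thus made up 27.8% of the DRG counts (24.4% and 31.2%). These DRG shares rest on 2 pools and were not tested.

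The kidney samples lay on the same side of the brain range as DRG for both arms, and so did heart, non-glandular stomach and ileum, whose intervals also lay outside the brain range. The shares of duodenum, glandular stomach, adrenal, liver, biceps muscle and whole blood were on the same sides too. Their 3p intervals reached the brain range, and so did the 5p intervals of liver, biceps muscle and whole blood. In kidney medulla, 138 of 195 miR-9a-3p counts (70.8%, 95% exact binomial interval 63.8% to 77.0%) and 17 of 12961 miR-9a-5p counts (0.131%, 0.0764% to 0.210%) started 1 base late. Whole kidney had 69.4% (59.9% to 77.8%) and 0.168% (0.0869% to 0.293%), and kidney cortex 71.6% (61.0% to 80.7%) and 0.396% (0.248% to 0.599%). The 3p shares of heart, non-glandular stomach and ileum were 56.5% (41.1% to 71.1%), 62.9% (44.9% to 78.5%) and 51.2% (35.1% to 67.1%), from 46, 35 and 41 counts. Their 5p shares were 0.747% (0.457% to 1.15%), 0.878% (0.454% to 1.53%) and 1.08% (0.702% to 1.59%). Jejunum, pancreas and ovary had 3p shares within the brain range (28.1%, 25.7% and 30.0%), from 32, 35 and 20 counts. Their 5p shares were 0.599%, 2.57% and 2.85%, and that of ovary lay within the brain range. Soleus muscle had 36.1% for the 3p arm, from 36 counts, and a 5p share within the brain range (3.51%). Testis had the lowest 3p share, 3 of 26 counts (11.5%, 2.45% to 30.2%), and 4.98% (3.11% to 7.51%) for the 5p arm. Uterus had 4.44% (3.14% to 6.06%) for the 5p arm with rat 7 and 4 of 298 counts (1.34%, 0.367% to 3.40%) without it, and without it only 4 miR-9a-3p counts were left. The intervals cover counting error only, reads without molecular identifiers not being independent molecules.

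**Figure D3:**
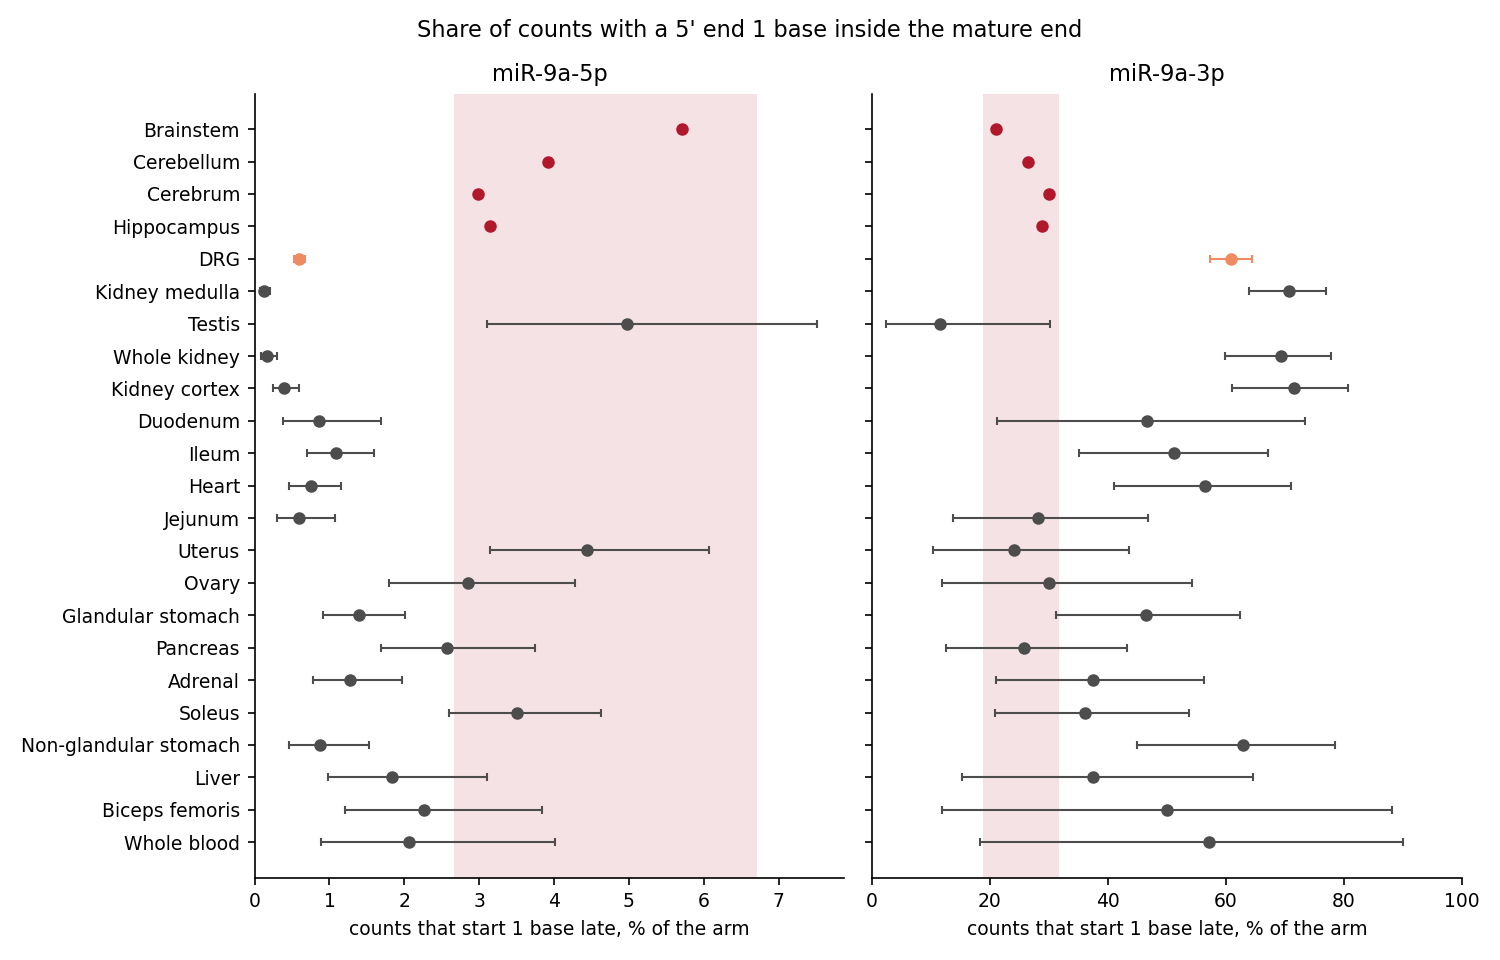
Percent of counts that start 1 base late for miR-9a-3p and miR-9a-5p in each tissue (linear axes from 0), as counts summed over libraries with exact 95% binomial intervals. The shaded band is the range of the 37 brain libraries, 18.8% to 31.8% (3p) and 2.66% to 6.71% (5p). The intervals of DRG, the kidney samples, heart, non-glandular stomach and ileum lie wholly above it for the 3p arm and below it for the 5p arm. The points of duodenum, glandular stomach, adrenal, liver, biceps muscle and whole blood lie on the same sides. Their 3p intervals reach the band, and so do the 5p intervals of liver, biceps muscle and whole blood. The 3p points of jejunum, ovary, pancreas and uterus lie within the band. So do the 5p points of ovary, soleus muscle, testis and uterus.

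The shares of counts with the common 5′ start were tested between brain regions with the rat as its own control. For miR-9a-5p these shares were 93.0% in the brainstem, 95.3% in the cerebellum, 96.5% in the cerebrum and 96.2% in the hippocampus. All 6 pairs of regions passed without the lane (exact sign flip tests, two-sided, adjusted over 36 tests, adjusted p = 0.00703 with 10 rats and 0.0296 with 7 rats), and every rat had the sign of the mean in each pair. For miR-9a-3p the shares were 78.6%, 73.2%, 70.2% and 70.9%. There 4 of 6 pairs passed, and hippocampus against cerebellum (difference -2.20 points, SD 1.97, exact sign flip adjusted p = 0.0938) and against cerebrum (0.77 points, SD 1.71, adjusted p = 0.396) did not.

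With all runs, 1 pair passed for each arm: cerebellum against brainstem for miR-9a-5p (7.15 points, exact sign flip adjusted p = 0.0176) and cerebrum against cerebellum for miR-9a-3p (-5.63 points, adjusted p = 0.0176). On the shared flow cell, which holds no run of that lane, 6 pairs passed for miR-9a-5p and 4 for miR-9a-3p. Without the lane and without rat 9, 3 pairs passed for each arm, and the 3 hippocampus pairs of miR-9a-5p had an adjusted p of 0.05625 from 6 rats, whose smallest exact p is 0.03125.

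Lengths of miR-9a-5p set the cerebellum apart. In the cerebellum, 25.1% ± 1.35 of the counts had 21 bases and 54.6% ± 1.53 had 23 bases (SD, n = 10). In the brainstem these were 14.9% ± 2.53 and 64.3% ± 4.69, in the cerebrum 16.3% ± 2.08 and 64.6% ± 2.65 (n = 10 each), and in the hippocampus 17.1% ± 2.86 and 63.8% ± 4.17 (n = 7). The cerebellum libraries had 23.1% to 26.9% at 21 bases, above all libraries of the other regions, of which the highest had 22.5%. The mean length was 22.28 bases in the cerebellum, 22.50 in the brainstem, 22.49 in the cerebrum and 22.47 in the hippocampus, and the 3 pairs with the cerebellum passed (exact sign flip adjusted p = 0.0108, 0.00703 and 0.0489), the others not. With all runs 2 pairs passed. DRG was close to the cerebellum, with 23.3% and 24.4% at 21 bases and 53.6% and 55.9% at 23 bases in the pools.

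The brainstem stood apart in the lengths of miR-9a-3p. Sequences of 22 bases made up 74.2% ± 1.57 of the counts in the brainstem (SD, n = 10) and 66.9% ± 1.42, 66.3% ± 1.12 and 67.3% ± 1.63 in the cerebellum, cerebrum and hippocampus. In DRG they made up 48.0% and 49.9%, and sequences of 21 bases 29.0% and 29.1%. The mean length was 21.84 bases in the brainstem and 21.78, 21.76 and 21.76 in these 3 regions, and the 3 pairs with the brainstem passed without the lane (exact sign flip adjusted p = 0.0316, 0.0108 and 0.0489) but none of 6 with all runs. Only 1 pair passed on the shared flow cell, 1 with a second lane also left out, and 1 without the lane and rat 9.

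**Figure D4:**
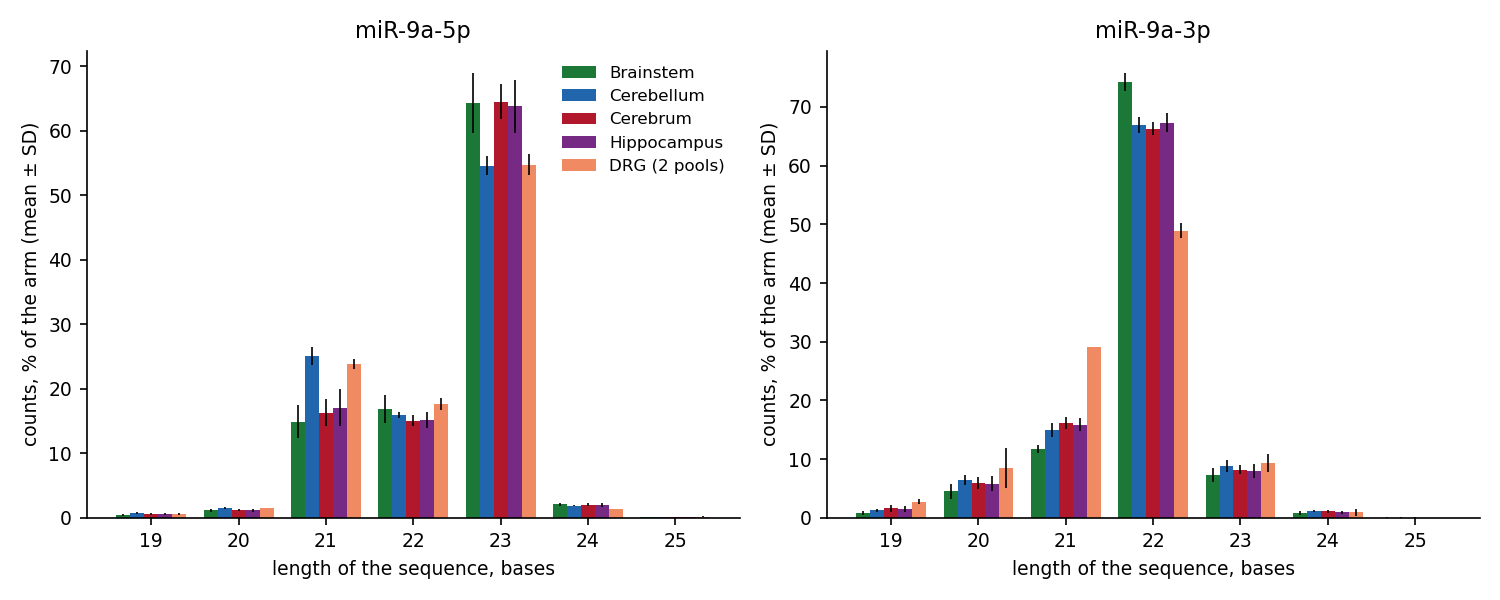
Percent of miR-9a-5p and miR-9a-3p counts by isomiR length from 19 to 25 bases (linear axis), mean and SD over libraries of each brain region and over the 2 DRG pools, without the runs of the lane with an extra base. The cerebellum has 25.1% of 5p counts at 21 bases, and DRG has 48.9% of 3p counts at 22 bases.

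An extra 3′ T that the hairpins do not hold was found on 5.07% ± 0.279 of the miR-9a-5p counts in the brainstem, 6.57% ± 0.376 in the cerebellum, 4.72% ± 0.308 in the cerebrum (SD, n = 10 each) and 4.51% ± 0.255 in the hippocampus (n = 7). The cerebellum, from 6.12% to 7.30%, overlapped no other brain region, and the DRG pools had 6.66% and 6.91%. A last base C moved with a lane: 8.18% to 11.4% of miR-9a-5p counts ended so in 3 brain runs of 1 lane of another flow cell, against 0.0879% to 1.81% in the other 73 brain runs.

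Few 3p reads carried a base that tells the hairpins apart. After the mature 3p end, Mir9-1 and Mir9-2 continue with AA and Mir9-3 with AG. Among the reads that reach this place, AG made up 45 of 596 in the brainstem (7.55%, 95% exact interval 5.56% to 9.97%), 99 of 1060 in the cerebellum (9.34%, 7.66% to 11.3%), 90 of 946 in the cerebrum (9.51%, 7.72% to 11.6%) and 72 of 795 in the hippocampus (9.06%, 7.15% to 11.3%). In DRG it was 5 of 18 (27.8%, 9.69% to 53.5%). The brain intervals overlap, and an added A or G would be counted in the same way.

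miR-9b, whose hairpins are antisense to those of miR-9a, was at the edge of detection. miR-9b-5p had 241 counts in brain, at least 1 in each of the 37 brain libraries, 2 in DRG and 7 in all 161 non-neural libraries. miR-9b-3p had 20 counts in brain, 1 in DRG and none elsewhere. Of these counts, 86% (5p) and 76.2% (3p) matched the antisense hairpins exactly along their whole length. The most counted exact sequences, with 116 and 5 counts, are shown to let their difference from miR-9a be seen.
miR-9b-5p: ttcggttatctagctttatga
miR-9b-3p: atacagctagataaccaaaga

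Other miRNAs with a like pattern were listed by Pearson's r of log2(mean CPM + 1) over the 23 tissues, among 539 names. For miR-9a-5p these were miR-9a-3p (r = 0.985), miR-219a-2-3p (0.969), miR-330-5p (0.959), miR-124-5p (0.956) and miR-330-3p (0.955). For miR-9a-3p they were miR-9a-5p (0.985), miR-124-5p (0.984), miR-219a-2-3p (0.983), miR-124-3p (0.977) and miR-1298 (0.969). The points share libraries and depth, and r is a description only. miR-9a-5p kept more of its brain level in DRG (7.43%) than miR-9a-3p (4.33%).

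Beside miR-9a, a list of 14 miRNAs known from the nervous system was followed. All 14 were higher in brain than in non-neural tissues (median log2 difference 5.59, against -0.98 over all names), where 26% of all names were called higher. In DRG against brain, 11 of 14 were lower and 1 was higher, with a median of -3.14, against 11.3% of all names lower, 16.9% higher and a median of 0. miR-128-3p, a neuronal miRNA, fell by 4.60 on the log2 scale (adjusted p = 2.71e-12 by edgeR), and miR-338-3p, known from myelinating glia, rose by 1.46 (adjusted p = 2.84e-05 by edgeR). miR-219a-2-3p, the other oligodendrocyte miRNA of the list, went the other way, with 38.5 CPM in DRG against region means of 313 to 2627 CPM. In DRG against non-neural tissues, 10 of 14 were higher and none lower (median 3.64), against 16.1% of all names higher, 8.1% lower and a median of -0.67. Between the brainstem and the cerebellum, 5 were higher and 6 lower in the cerebellum (median 0.09), against 15.5% of all names higher, 12.6% lower and a median of 0. Both miR-9a arms were called higher there, but the call of the 3p arm stayed in only 7 of 23 alternatives.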

How the data were processed

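Small RNA libraries (TruSeq) were trimmed with cutadapt 1.4.1, per the labels, and the authors deposited whole-number counts per miRNA name and per isomiR, not normalized. Per the paper's methods, reads were assigned to miRBase names with the quantifier of miRDeep2, first those of rat and then those of other species. Of 458 runs, 14 repeat runs of the same lane were set aside and the other 444 summed into 215 libraries and 207 samples. The members and lists were chosen with earlier results of these data known.

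CPM are counts scaled to 1000000 over all miRNA names. Tests used edgeR 4.0.16 (quasi-likelihood, upper quartile scaling, filterByExpr, 1593 names, R 4.3.3), with p adjusted by Benjamini-Hochberg within each comparison over all names at 0.05. The arm ratio was log2 of the counts plus 0.5, tested by limma 3.58.1. IsomiR shares were compared within rats by exact sign flip tests (numpy 2.4.6), and exact binomial intervals were taken with scipy 1.17.1. DESeq2 1.42.0 and TMM scaling were alternatives. The scripts were tested on simulated data. Named miRNAs were the members, the fixed marker and nervous system lists, and the 5 most alike by Pearson's r. The same number marks the same rat in the labels. Deviations from the tissue means correlated at 0.0185 in the median within a rat (1866 pairs) and at -0.00739 between rats (16806 pairs). All samples share 1 flow cell, used alone as the within-batch alternative.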

Additional observations from a re-analysis of the deposited data

Results flagged for a closer look

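In 17 of 72 groups of 4 to 10 libraries, 1 library lay far from the others by Dixon's test, of which chance alone flags about 5%. For miR-9a-5p these were the cerebrum of rat 9 (18611 CPM, nearest 32574), the duodenum of rat 8 (131 CPM, nearest 70.5), the ileum of rat 11 (106 CPM, nearest 71.1) and the glandular stomach of rat 9 (74.6 CPM, nearest 31.8). For miR-9a-3p it was the uterus of rat 7 (4.95 CPM, nearest 0.406).

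The isomiR measures set apart the libraries with runs in the lane with an extra 5′ base. In the brainstem of rat 6, the share with the common start was 46.7% for miR-9a-3p (nearest 76.7%) and 45.0% for miR-9a-5p (nearest 92.0%), the mean lengths 22.4 and 23.1 bases (nearest 21.9 and 22.6), and the most counted 3p sequence 31.8% (nearest 61.0%). In the cerebrum of rat 9, these shares were 46.6% (nearest 68.0%) and 45.8% (nearest 96.1%), the lengths 22.3 and 23.1 bases (nearest 21.8 and 22.5), and the most counted sequences 27.6% of the 3p counts (nearest 50.7%) and 28.2% of the 5p counts (nearest 48.3%). The most counted miR-9a-5p sequence of the cerebellum of rat 11 made up 37.5% (nearest 45.0%), and that library has a run in the lane with a last base C.

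Of the samples left out, the duodenum libraries of rats 2, 4 and 7 held 45999, 44276 and 30238 CPM of miR-9a-5p, against at most 315 CPM in the non-neural libraries used.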

How the results depend on the processing

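Brain and DRG against other tissues and the DRG ratio kept direction and call in every setting tried. Between regions, cerebellum against brainstem for miR-9a-3p lost its call under DESeq2 (0.32), TMM (0.36), no filter (0.92), all libraries (0.92), the shared flow cell (0.75) and without either DRG pool (0.892 male, 0.885 female). For miR-9a-5p, cerebrum against brainstem lost it under TMM (0.74), all libraries (0.97) and the shared flow cell (0.72), and hippocampus against brainstem under all libraries (0.62) and the shared flow cell (0.85). Cerebrum against cerebellum reversed under DESeq2 (5p 0.018), hippocampus against cerebellum under DESeq2 (5p 0.30, 3p 0.22) and TMM (5p 0.066), and hippocampus against cerebrum with all libraries (5p -0.35, 3p -0.27, ratio 0.24). Brain libraries alone called cerebrum against cerebellum (5p -0.84, 3p -1.01), hippocampus against brainstem (3p 0.48), cerebellum (5p -0.44, 3p -0.53) and cerebrum (5p 0.40, 3p 0.48). The cause was not tested. The replicate block (same rat, without DRG) changed no call between regions, and gave 5 rather than 4 tissues higher for miR-9a-5p.

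The ratio of cerebrum against cerebellum passed by the exact sign flip test (0.157) and with the most counted sequences (0.53, and 0.45 for hippocampus against cerebellum). On the shared flow cell liver (3p 0.27), soleus (5p 0.21) and ovary (5p 0.13) reversed, 3 tissues were lower for miR-9a-5p and 0 for miR-9a-3p. All libraries gave 2 tissues higher for miR-9a-3p. Sex differences, none called, changed sign under DESeq2 (brainstem 3p 0.036), TMM (hippocampus 5p -0.012), all libraries (cerebellum 5p -0.013) and the shared flow cell (brainstem 5p -0.043, hippocampus 3p -0.013).

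For isomiRs, the common start of miR-9a-5p in cerebrum against cerebellum and hippocampus against cerebrum reversed on the shared flow cell (1.21 and -0.35 points), without 1 lane (1.17 and -0.31), without 2 lanes (1.17 and -0.31) and without 1 lane and rat 9 (1.14 and -0.27), and that of miR-9a-3p in hippocampus against cerebellum with all libraries (0.58). The pairs that passed, for 3p mean length, start and most counted sequence and then 5p start and most counted sequence, were 1, 4, 3, 6 and 3 on the shared flow cell, 3, 4, 4, 6 and 3 without 1 lane, 1, 4, 4, 6 and 3 without 2 lanes, 1, 3, 3, 3 and 2 without 1 lane and rat 9, and 1, 3, 2, 3 and 1 with isomiRs of at least 10 counts. All libraries gave 1 (3p length), 2 (3p most counted), 3 (5p start) and 1 (5p most counted), and no replicate block 1 (3p length), 2 (3p start), 2 (5p start) and 1 (5p most counted).

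With a rat or pool left out, values ranged as follows. Cerebellum against brainstem for miR-9a-3p ranged from 0.84 to 0.93, and the ratio of cerebrum against cerebellum from 0.137 to 0.189. Sex differences ranged from -0.084 to 0.013 (brainstem 3p), -0.015 to 0.096 (brainstem 5p), -0.035 to 0.090 (cerebellum 5p), -0.033 to 0.23 (cerebrum 5p) and -0.021 to 0.22 (hippocampus 5p). The common start of miR-9a-5p ranged from -2.14 to 8.96 (cerebrum against brainstem), -4.51 to 1.14 (cerebrum against cerebellum) and -0.27 to 8.19 (hippocampus against cerebrum). Pairs that passed ranged from 0 to 1, 1 to 4 and 1 to 4 (3p mean length, start and most counted) and from 1 to 2, 1 to 3 and 0 to 2 (5p). No block was possible for the sexes. Precision outside brain is limited by depth, with a median of 0.675 CPM of miR-9a-3p.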
